A study of Mus musculus with 12 samples.

Results

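The comparison described here set the epididymal white adipose tissue (eWAT) of Mir181a2b2-/- (KO) mice injected with vehicle against that of Mir181a2b2 flox/flox (flox) mice injected with vehicle. The 6 libraries, 3 per genotype and 1 per mouse, were chosen by their labels from the 12 of the series. All 12 mice were males fed for 12 weeks with a diet in which fat made up 60%, and the other 6 received methotrexate (MTX) at 1 mg/kg each week. The libraries of these 6 entered the filter on low counts, the scaling and one shared estimate of the spread. They also served for a test of the difference between treatments, as levels for reference and to define a pattern by which genes were sorted. The KO mice lack the locus in the whole body, and the flox mice carry the unrecombined alleles. Both genotypes shared the diet and the injections. The mice were age-matched, but their age is not given in the sources used here. Libraries are named by group and by the number in their label, so the flox vehicle group holds replicates 1, 3 and 4 and the KO vehicle group holds replicates 1, 2 and 3. The flox vehicle libraries held 21204019 to 23491634 counted reads and those of the KO vehicle mice 19653146 to 21961301. Levels are given as CPM, the counts of a gene scaled to the size of its library, and a count of 0 allows up to 3 counts, or 0.118 to 0.151 CPM.

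MicroRNAs repress transcripts that pair with their seed, and those of the miR-181 family are known for restraining the inflammatory response of endothelial cells. White fat in obesity gains macrophages, many of which surround dying adipocytes and take up their lipid, while adipocytes lose insulin sensitivity. The epididymal fat pad of a male mouse lies against the epididymis and the testis, whose epithelium and germ cells express large sets of genes that adipose tissue does not.

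The deleted locus, on chromosome 2 of GRCm38, encodes a pair of precursors that each give 2 mature microRNAs. Their RefSeq sequences are shown as products of the deleted locus, with the seed (bases 2 to 8) in capitals. The paper describes another source of Mir181b, the Mir181a-1/Mir181b-1 cluster (chromosome 1), which is not part of the deletion. The KO mice may therefore still make the 5p strands. The 5p strands share 1 seed, and from position 1 at the 5′ end miR-181a-5p differs from miR-181b-5p by A9U, C10U and A21G over the shared length.
mmu-miR-181a-5p (chr2:38852741-38852763, plus strand): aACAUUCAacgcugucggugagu
mmu-miR-181b-5p (chr2:38853845-38853868, plus strand): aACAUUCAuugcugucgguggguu
mmu-miR-181a-2-3p (chr2:38852785-38852806, plus strand): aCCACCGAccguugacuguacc
mmu-miR-181b-2-3p (chr2:38853883-38853904, plus strand): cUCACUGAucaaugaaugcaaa

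Both precursors, Mir181a-2 and Mir181b-2, had 0 counts in each of the 6 vehicle libraries, so the deletion could not be checked in these data. Of the genes described in earlier work as miR-181 targets, 13 were tested, of which 2 rose, 1 fell and 10 did not pass the test. Of all 18702 genes tested, 13.9% were called higher and 17.8% lower. The median log2 fold change of the 13 was -0.10, against -0.06 over all genes tested. Phlpp2, a phosphatase that acts on Akt, stood at 25.6, 24.3 and 21.0 CPM in flox replicates 1, 3 and 4 and at 13.2, 15.8 and 12.9 CPM in KO replicates 1, 2 and 3. It was lower in all 3 KO mice, with a log2 fold change of -0.76 (SE 0.14, adjusted p = 0.00429, edgeR). Kpna4, the importin through which miR-181b was described to act on NF-kappaB, had a log2 fold change of -0.10 (SE 0.20), Card10 one of 0.09 (SE 0.20) and Bcl2 one of -0.04 (SE 0.21), none of them called. The 2 that rose, named after their values were seen, were Dusp6 (log2 fold change 1.21), a phosphatase of ERK, and Timp3 (0.75), an inhibitor of matrix proteases.

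A gene was called where edgeR's quasi-likelihood test gave an adjusted p (Benjamini-Hochberg) under 0.1 and the levels differed 1.5-fold or more. Of 18702 genes tested, 2598 (13.9%) were called higher and 3326 (17.8%) lower in KO mice. The 3 KO libraries all lay above the 3 flox libraries for 22.8% of the genes tested, and all below for 25.3%. An exact permutation test of 3 mice against 3 cannot go below p = 0.1, so single genes were tested only within the fit across all genes. The extremes were unequal in size. By at least 8-fold, 1092 genes were lower and 136 higher, and 490 of the genes called lower had at most 3 counts in every KO library.

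**Figure D1:**
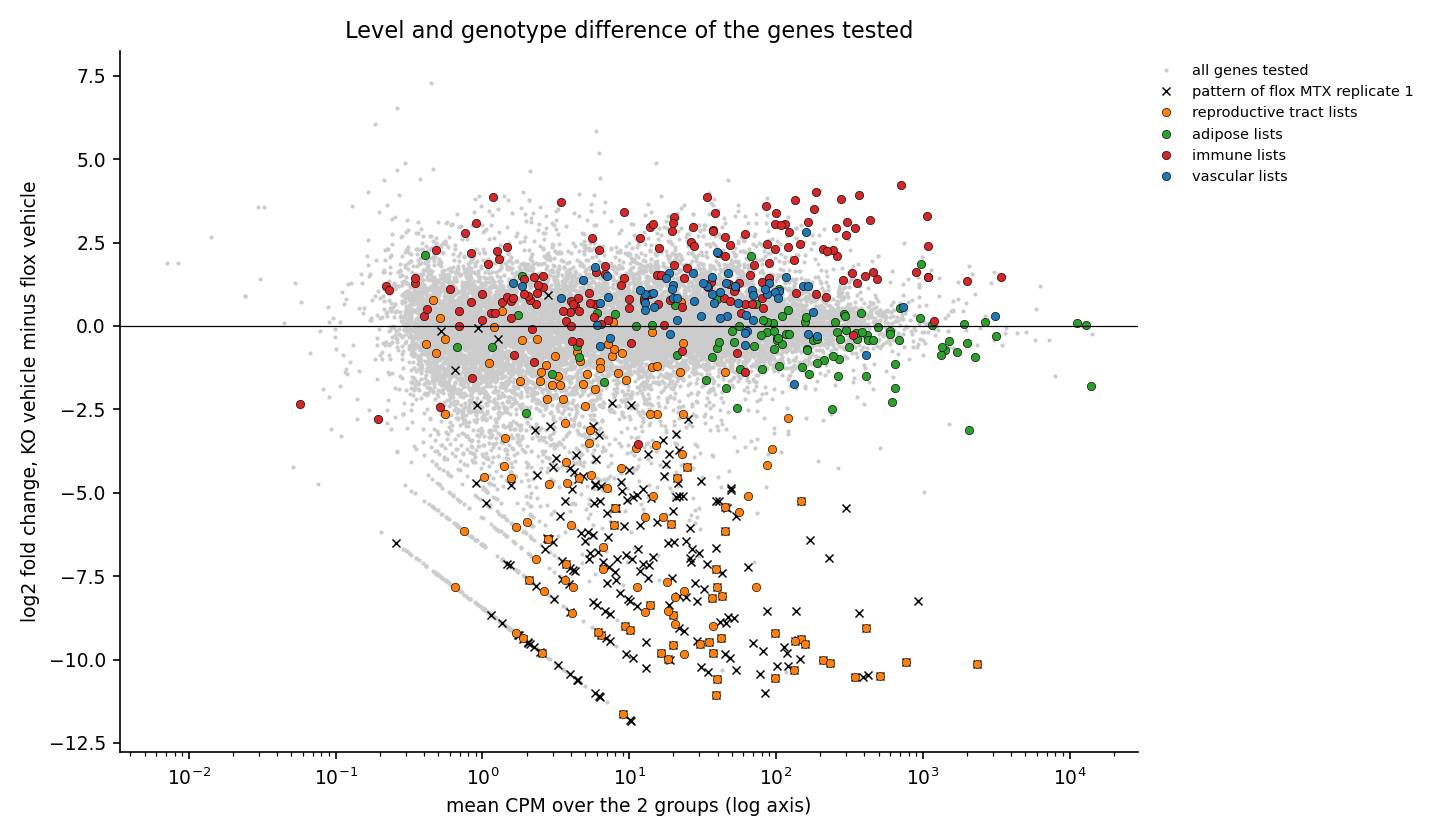
Each point is a gene, with the mean of the flox and KO vehicle means in CPM on a log axis (x) and the log2 fold change, KO minus flox (y). Genes of the reproductive tract lists (orange) and genes with the pattern of flox MTX replicate 1 (crosses) fill the lower right, immune genes (red) lie mostly above 0, and the diagonal lines at the lower left are genes with a few counts or none in the KO libraries.

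The largest group of listed genes among those lower in KO mice belonged to the reproductive tract lists. Not all of these lists are particular to the epididymis and testis. In the MTX libraries the keratin and junction list summed to 56.9 to 210 CPM and the motile cilia list to 34.3 to 42.9 CPM. The reproductive tract lists held 193 genes, of which 140 passed the filter on low counts. None was called higher and 112 were called lower, with a median log2 fold change of -5.18, or -4.72 with the 31 genes that were at or under 3 counts in every KO library placed at their bound. Since most of these genes passed the filter only through the flox libraries, the count describes them and tests nothing. In bulk tissue, fewer cells of a type and less RNA per cell cannot be told apart.

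Epididymal secretory proteins summed to 7826, 20427 and 2632 CPM in flox replicates 1, 3 and 4 and to 51.1, 50.1 and 23.1 CPM in KO replicates 1, 2 and 3. Flox replicate 3 was the highest and flox replicate 4 the lowest of the flox libraries, and every flox library was above every KO library. Among the MTX libraries, flox replicate 1 reached 872 CPM for the same list, and the remaining 5 had 8.395 to 64.5 CPM. Of 37 genes, 26 were tested and 21 were called lower, with a median log2 fold change of -8.79 (-8.15 with 7 genes at their bound). Crisp1, a secreted protein that coats sperm (chromosome 17, 40293758 to 40319207), stood at 3751, 9201 and 1164.5 CPM in flox replicates 1, 3 and 4 and at 3.48, 3.43 and 5.76 CPM in the KO libraries. Its log2 fold change was -10.12 (SE 2.27, adjusted p = 0.00772, edgeR). Adam7, a membrane protein of the epididymal epithelium, stood at 598, 1610 and 244 CPM in flox replicates 1, 3 and 4 and at 1.06 to 1.91 CPM in KO mice (log2 fold change -9.04, SE 1.82).

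Not every epididymal gene followed. Rnase10 and Gpx5, which are made in the first part of the duct, had log2 fold changes of 0.77 (SE 0.84) and 0.43 (SE 1.79) and were not called. Rnase10 stood at 0.174, 0.472 and 0.369 CPM in flox replicates 1, 3 and 4 and at 1.21, 0.508 and 0.0469 CPM in KO replicates 1, 2 and 3, and Gpx5 was at 0 in 4 of the 6 libraries. Ros1, the receptor kinase of the initial segment, stood at 0.738, 3.58 and 0.416 CPM in flox mice and at 0 to 0.151 CPM in KO mice, and did not pass the filter on low counts. Among the lipocalins, carriers of the luminal fluid, Lcn8 was not called (log2 fold change 0.24, SE 1.65), while Lcn5 stood at 1.48, 222 and 0.0923 CPM in flox replicates 1, 3 and 4 and at 0 to 0.353 CPM in KO mice. The call of Lcn5 (log2 fold change -8.998, SE 2.66, adjusted p = 0.0328, edgeR) was lost without flox replicate 3, the only library in which it was high, and also without KO replicate 2 or KO replicate 3.

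Beta-defensins, antimicrobial peptides of which many are made in the epididymis, summed to 1228, 4333 and 343 CPM in flox replicates 1, 3 and 4 and to 4.74, 3.09 and 2.62 CPM in KO mice. All 16 that were tested, of 30, were called lower, with a median log2 fold change of -9.66 (-8.402 with 8 genes at their bound). Defb48 stood at 5.51, 14.4 and 1.80 CPM in flox replicates 1, 3 and 4, with the same order of libraries as Crisp1, and at 0.0469 to 0.705 CPM in KO mice (log2 fold change -4.71, SE 1.07). Defb41 was at 0 to 0.393 CPM in the 6 libraries and was not tested. Of 4 genes of the acid-secreting clear and narrow cells, 3 were called lower, among them the proton pump subunit Atp6v1b1, which stood at 4.56, 6.69 and 1.25 CPM in flox mice and at 0.0504, 0 and 0 CPM in KO mice, at least 29.8-fold lower.

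Epithelial keratins and junction genes summed to 1235, 2901 and 655 CPM in flox replicates 1, 3 and 4 and to 126, 152 and 70.0 CPM in KO mice. Of 22 tested, 21 were called lower, with a median log2 fold change of -5.18. Epcam, an adhesion molecule of epithelia, stood at 90.7, 242 and 43.9 CPM in flox replicates 1, 3 and 4 and at 4.23, 6.10 and 0.515 CPM in KO replicates 1, 2 and 3 (log2 fold change -5.11, SE 1.04, adjusted p = 0.00527, edgeR). Cdh1, the cadherin of epithelial junctions, stood at 65.9, 166 and 33.5 CPM in flox mice and at 1.26, 2.29 and 0.187 CPM in KO mice (log2 fold change -6.13). KO replicate 3 was the lowest of the KO libraries for both genes.

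Motile cilia genes were also found in 2 of the KO libraries. They summed to 198, 240 and 199.5 CPM in flox replicates 1, 3 and 4 and to 101, 123 and 36.1 CPM in KO replicates 1, 2 and 3, against 34.3 to 42.9 CPM in the 6 MTX libraries. Foxj1, the transcription factor of ciliated cells, stood at 28.4, 16.6 and 19.1 CPM in flox mice and at 11.3, 16.5 and 0.281 CPM in KO replicates 1, 2 and 3, and it did not exceed 0.438 CPM in the MTX libraries. Its log2 fold change of -1.19 (SE 0.85) was not called. Dnah5, a dynein of the ciliary axoneme, stood at 5.21, 3.19 and 7.25 CPM in flox mice and at 2.02, 2.58 and 0 CPM in KO mice, and was not called either (log2 fold change -1.76, SE 1.01). Of 24 tested, 9 were called lower, against 17.8% of all genes tested, with a median log2 fold change of -1.39. Flox replicate 3, which was the highest of the 3 flox libraries for Crisp1, was the lowest for Foxj1 and Dnah5.

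Germ cell genes were also lower in KO mice. Spermatid genes summed to 775, 659 and 314 CPM in flox replicates 1, 3 and 4 and to 31.7, 26.6 and 21.0 CPM in KO mice. Replicate 1 had the highest sum through Prm2, while Tnp1 was highest in replicate 3. Of 27 tested, 23 were called lower, with a median log2 fold change of -5.73 (-4.86 with 5 genes at their bound). Prm2, a protamine that packs sperm DNA (chromosome 16, 10791380 to 10796134), stood at 269, 117 and 52.1 CPM in flox replicates 1, 3 and 4 and at 1.06, 0.678 and 0.187 CPM in KO mice (log2 fold change -7.83, SE 1.25, adjusted p = 0.00313, edgeR). Prm1, its neighbour on the chromosome, stood at 60.1, 55.3 and 24.5 CPM in flox mice and at 0.202, 0.254 and 0.0937 CPM in KO mice (log2 fold change -7.94, SE 0.78). Tnp1, a transition protein of spermatid chromatin, stood at 27.0, 31.5 and 17.5 CPM in flox mice and at 0, 0.0847 and 0.0937 CPM in KO mice, at least 182-fold lower. Akap4, which anchors kinases in the sperm tail, stood at 29.1, 26.2 and 12.5 CPM in flox mice and at 0.302, 0 and 0 CPM in KO mice (log2 fold change -7.82, SE 1.10).

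Spermatocyte genes summed to 71.9, 173 and 150 CPM in flox replicates 1, 3 and 4 and to 44.9, 51.2 and 39.7 CPM in KO mice, and 13 of 14 tested were called lower. Ddx4, an RNA helicase of germ cells, stood at 1.43, 13.7 and 6.05 CPM in flox mice and at 0.101, 0.508 and 0.609 CPM in KO mice (log2 fold change -4.09, SE 0.84). Sycp3, a protein of the synaptonemal complex, went the other way and stood at 18.2, 12.2 and 20.3 CPM in flox mice and at 26.4, 31.4 and 26.4 CPM in KO mice. Its log2 fold change of 0.73 (SE 0.43) was not called, and at 11.8 to 42.7 CPM in the MTX libraries it marked no group.

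Of the genes of testicular somatic cells, Insl3, a hormone of Leydig cells, stood at 2.69, 5.86 and 120 CPM in flox replicates 1, 3 and 4 and at 2.92, 3.60 and 2.39 CPM in KO replicates 1, 2 and 3. Only flox replicate 4 stood apart, and the call (log2 fold change -3.84, SE 1.17, adjusted p = 0.0301, edgeR) was lost without that library, as it was without KO replicate 3. Cyp17a1, an enzyme of androgen synthesis, did not go with Insl3 and stood at 51.2, 130 and 36.8 CPM in flox replicates 1, 3 and 4, at 7.46 CPM in flox MTX replicate 1 and at 0.0937 to 0.353 CPM in KO vehicle mice (log2 fold change -8.17). Amh, a hormone of Sertoli cells, stood at 0.151 to 0.369 CPM in the 6 libraries and was not tested. All 4 genes tested were called lower. Secreted proteins of the seminal vesicle and prostate summed to at most 1.75 CPM in any of the 6 libraries, and none of 8 passed the filter, so RNA of the accessory glands was at or near the floor.

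The summed epididymal proteins exceeded the summed spermatid genes 10.1-fold in flox replicate 1, 31.0-fold in replicate 3 and 8.38-fold in replicate 4. In flox MTX replicate 1, the only MTX library with a raised epididymal sum, the factor was 29.2.

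**Figure D2:**
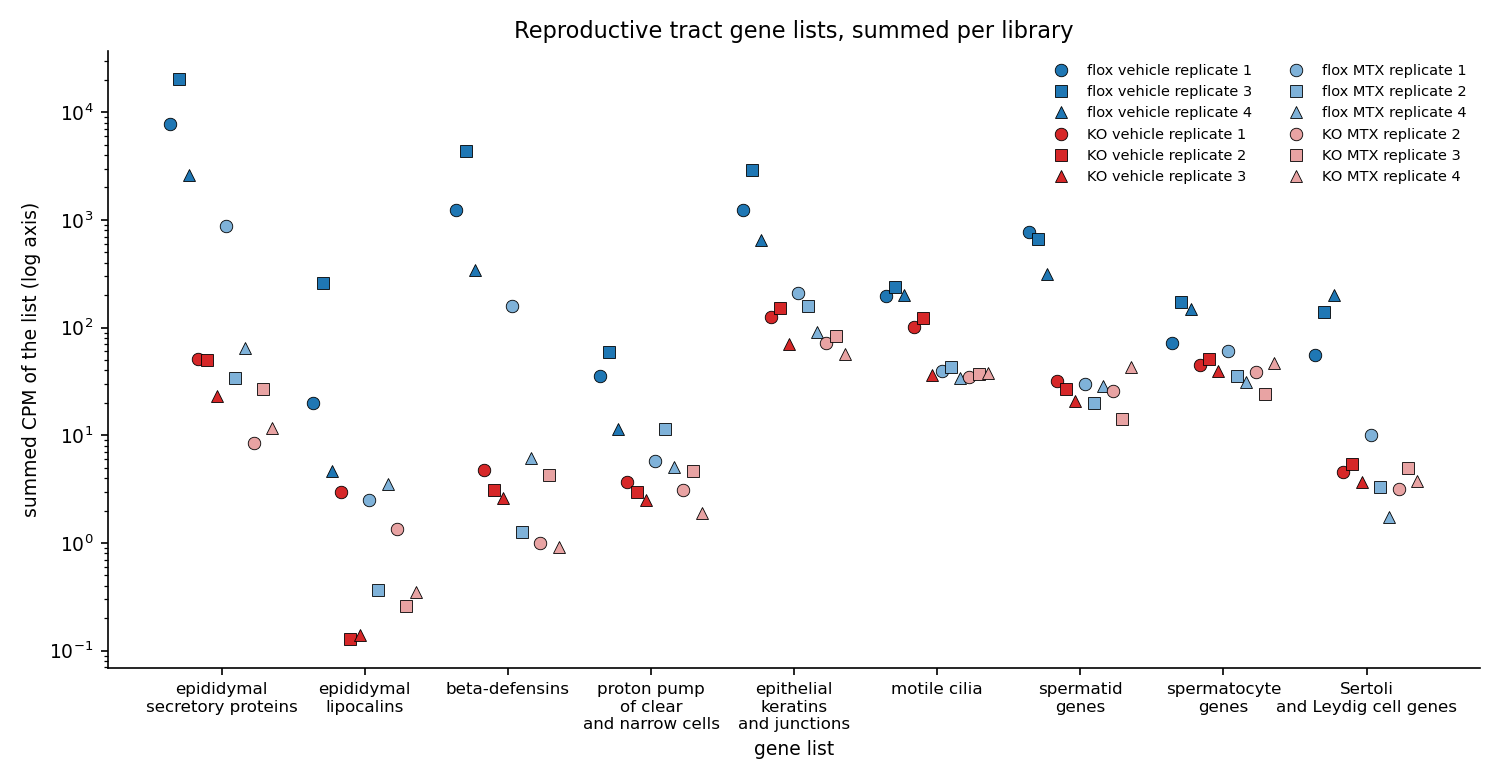
Summed CPM per library (log axis, y) of 9 reproductive tract lists (x) in the 12 libraries, each point 1 library, with colours for the groups and shapes for the mice within a group. The 3 flox vehicle libraries stand above the KO vehicle libraries in every list, KO vehicle replicates 1 and 2 stand above the MTX libraries for motile cilia, and flox MTX replicate 1 is raised for epididymal genes and beta-defensins but not for spermatid genes.

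Flox MTX replicate 1 was used to find further genes with the distribution of epididymal transcripts, since it is outside the comparison. A gene was given this pattern where its level there was at least 0.5 CPM and at least 5 times the highest of the other 5 MTX libraries. Of the genes tested, 233 had the pattern, of which 227 were called lower in KO vehicle mice and none higher (17.8% of all genes tested were called lower). As with the tract lists, genes of this pattern could pass the filter on low counts through the flox vehicle libraries, so the count is a description and tests nothing, and with at least 10 counts required in every library 5 remained. They took 1.98%, 5.45% and 0.714% of the counts in flox vehicle replicates 1, 3 and 4, 0.00741% to 0.0230% in the KO vehicle libraries and 0.206% in flox MTX replicate 1. The lists held 44 of the 227, and the other 183 were in no tract list. The most abundant of these, named after their values were seen, was Cuzd1, which stood at 1301, 3746 and 520.1 CPM in flox replicates 1, 3 and 4 and at 2.06 to 9.95 CPM in KO mice. Another, Ptgds, a prostaglandin synthase, stood at 433, 691 and 235 CPM in flox mice and at 1.31 to 6.69 CPM in KO mice. Spermatid genes lacked the pattern, with 0 of 27.

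Of the 3326 genes called lower, 295 were in a tract list or had the pattern and 3031 were in neither. Among these 3031 only the highest flox library was counted, not the full order of the flox libraries that Crisp1 showed. The share of all genes tested with that order was not counted either, so its mention for single genes is a description only. Flox replicate 3 was the highest of the 3 flox libraries for 2196 of the 3031 (72.5%), against 42.2% of all genes tested and 19.4% of the genes called higher. In 395 of them every KO library had at most 3 counts, 822 were lower by at least 8-fold and 677 by less than 2-fold. The mean in KO mice was at least 10 CPM for 828, and 65.9% of these were again highest in flox replicate 3. Examples with a clear level in KO mice, chosen after their values were seen, had replicate 3 as the highest or as the lowest flox library. Gpx3, a secreted glutathione peroxidase, stood at 2144, 5096 and 816 CPM in flox replicates 1, 3 and 4 and at 312, 383 and 351 CPM in KO mice (log2 fold change -2.95), and Hdac6, a cytoplasmic deacetylase, stood at 274, 716 and 95.1 CPM in flox mice and at 20.6, 22.4 and 22.6 CPM in KO mice (log2 fold change -4.05). Cyp2e1, a cytochrome P450 of liver and fat, stood at 4303, 559 and 1053 CPM in flox mice, with replicate 3 the lowest, and at 113, 58.1 and 16.7 CPM in KO mice (log2 fold change -4.98). The part that epididymal RNA has in the lower level of the 3031 genes was not tested, because the libraries that held it were the flox vehicle group itself, so that genotype and this RNA cannot be told apart.

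Among the genes lower in KO mice and in no tract list, without the pattern, with a mean of at least 10 CPM in flox mice, groups that did not overlap and a symbol other than a Gm or Rik name, the 5 with the largest fitted change were Alppl2, March10, Spint4, Spint5 and Tuba3a. All were at or near 0 in KO mice, where a fitted value depends on the prior count, so no order among them is given. Spint4 and Spint5, protease inhibitors, stood at 6.47, 693 and 0.462 CPM and at 3.99, 254 and 0.369 CPM in flox replicates 1, 3 and 4, so that replicate 3 carried their group mean, as it did for Lcn5. The call of Spint4 was lost in DESeq2, and those of Spint5 and Lcn5 were lost in DESeq2 and in the fit of the 6 libraries alone. Alppl2, an alkaline phosphatase, stood at 7.51, 33.8 and 1.15 CPM in flox mice and at 0 in all 3 KO libraries, at least 101-fold lower. March10, a ubiquitin ligase of spermatids, stood at 7.07, 18.2 and 4.89 CPM in flox mice and at 0 in KO mice, at least 72.1-fold lower. Tuba3a, a tubulin of the testis, stood at 3.12, 25.3 and 20.6 CPM in flox mice and at 0, 0.0423 and 0 CPM in KO mice, at least 117-fold lower.

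Most of the immune genes called were higher in KO mice. Of 171 immune genes tested, 104 were called higher and 3 lower in KO mice, with a median log2 fold change of 1.39 against -0.06 over all genes and a background of 13.9% called higher. Macrophage identity genes summed to 792, 577 and 1052 CPM in flox replicates 1, 3 and 4 and to 4128, 4542 and 7620 CPM in KO replicates 1, 2 and 3. Of 13, 11 rose and none fell, with a median log2 fold change of 2.77. Cd68, a lysosomal glycoprotein of macrophages (chromosome 11, 69664213 to 69666153), stood at 40.7, 27.3 and 43.3 CPM in flox mice and at 353, 440 and 756 CPM in KO mice, 13.9-fold higher (log2 fold change 3.80, SE 0.74, adjusted p = 0.00482, edgeR). Every KO library was above every flox library, and KO replicate 3 was the highest of all. Adgre1, which encodes F4/80, stood at 29.0, 17.3 and 33.7 CPM in flox mice and at 125, 136 and 178 CPM in KO mice (log2 fold change 2.46, SE 0.61). Csf1r, the receptor for the macrophage growth factor, rose by 2.31 (SE 0.48), and Lgals3, which encodes the Mac2 antigen, by 3.30 (SE 0.57), both on the log2 scale. The 2 that did not pass the test were Cx3cr1 (log2 fold change 0.83) and Aif1 (0.74).

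Lipid-associated macrophage genes, which handle the lipid and lysosomes of macrophages in obese fat, were called higher for 16 of 17, with a median log2 fold change of 2.65. Trem2, a lipid-sensing receptor of these cells (chromosome 17, 48346401 to 48354147), stood at 27.2, 14.4 and 23.8 CPM in flox mice and at 247, 288 and 526 CPM in KO mice, 16.2-fold higher (log2 fold change 4.02, SE 0.87, adjusted p = 0.00669, edgeR). Gpnmb, a glycoprotein of lipid-laden macrophages, stood at 102, 43.9 and 70.7 CPM in flox mice and at 769, 1098 and 2166 CPM in KO mice (log2 fold change 4.22, SE 1.02). Itgax, which encodes CD11c, rose by 3.05 (SE 0.64) and Mmp12, a macrophage elastase, by 3.93 (SE 1.00) on the log2 scale. Spp1, which encodes osteopontin, stood at 21.4, 2.01 and 12.9 CPM in flox replicates 1, 3 and 4 and at 42.8, 55.7 and 133 CPM in KO mice, and its call (log2 fold change 2.67, SE 1.01, adjusted p = 0.0687, edgeR) was lost when KO replicate 3, flox replicate 3 or flox replicate 4 was left out. Acp5, a phosphatase, was the one gene not called, with a log2 fold change of -0.26.

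Markers of tissue-resident macrophages rose as well, for 10 of 12, with a smaller median log2 fold change of 1.86. Mrc1, the mannose receptor, stood at 39.7, 31.1 and 90.1 CPM in flox mice and at 182, 180 and 270 CPM in KO mice (log2 fold change 1.97, SE 0.48). Lyve1, a hyaluronan receptor, stood at 10.6, 8.69 and 24.6 CPM in flox mice and at 66.9, 57.3 and 74.3 CPM in KO mice (log2 fold change 2.18, SE 0.39, adjusted p = 0.00388, edgeR). Timd4, a receptor for dying cells, had 0.236 to 1.61 CPM across the 6 libraries with the groups overlapping and was not called (log2 fold change 0.17, SE 0.65).

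Genes of receptor signaling, complement and antigen presentation in myeloid cells were called in the same direction. Fc receptor and ITAM signaling genes rose for 12 of 14 (median log2 fold change 2.38), with Tyrobp, the adaptor of Trem2, at 31.5, 20.7 and 35.8 CPM in flox mice and at 233, 269 and 499 CPM in KO mice (log2 fold change 3.51, SE 0.65). The kinase Syk rose by 2.29 (SE 0.45) on the log2 scale. Of 15 complement genes, 10 rose and 1, C6, fell (lost without KO replicate 2, KO replicate 3, flox replicate 1 or flox replicate 4), with a median log2 fold change of 1.47. C1qa rose from 73.9, 58.7 and 106 CPM in flox mice to 435, 458 and 678 CPM in KO mice (log2 fold change 2.72, SE 0.51), and C3ar1, a receptor for a fragment of C3, rose by 3.39 (SE 0.66). C3 itself, the central component, stood at 680.01, 351 and 681 CPM in flox mice and at 1628, 1645 and 1484 CPM in KO mice (log2 fold change 1.47, SE 0.41). Genes of MHC class II presentation rose for 7 of 10, with a median log2 fold change of 1.39. Cd74, the invariant chain, rose by 1.63 (SE 0.41), and H2-Ab1, a class II chain, by 1.28 (SE 0.43), a call lost without KO replicate 3, flox replicate 1 or flox replicate 3.

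Cytokines and chemokines were less uniform. Of 11 cytokines tested, 6 rose and none fell, against 13.9% and 17.8% of all genes tested (median log2 fold change 1.28). Il1rn, the antagonist of the IL-1 receptor, stood at 2.86, 2.08 and 8.26 CPM in flox mice and at 37.0, 44.8 and 109 CPM in KO mice (log2 fold change 3.86, SE 0.82, adjusted p = 0.0061, edgeR). Il10, an anti-inflammatory cytokine, rose from 0.347, 0.118 and 0.0923 CPM to 0.806, 1.69 and 2.34 CPM (log2 fold change 3.08, SE 0.62). Il1b stood at 0.0787 to 0.217 CPM in flox mice and at 0.605, 0.0423 and 0.281 CPM in KO mice, with overlapping groups and no call, and Il6 was at or under 0.422 CPM throughout and was not tested. Of 30 chemokines and receptors, 17 rose and none fell (median log2 fold change 1.26). Ccl3 rose by 3.70 (SE 0.74) and Ccl5 by 1.55 (SE 0.44) on the log2 scale. Ccr2, the receptor by which monocytes are recruited, stood at 13.3, 25.8 and 68.6 CPM in flox mice and at 74.3, 44.3 and 63.8 CPM in KO mice, where the groups overlapped and no call was made (log2 fold change 0.76, SE 0.53).

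Of 16 T cell genes, 3 rose and 1 fell, against 13.9% and 17.8% of all genes tested, with a median log2 fold change of 0.75, and Cd3e (0.79, SE 0.53), Cd4 (0.96, SE 0.65) and Cd8a (1.42, SE 0.67) were not called. The gene that fell, Gata3 (log2 fold change -3.54), is a transcription factor of helper T cells and also of epithelia, and it stood in flox replicates 1, 3 and 4 in the order of Crisp1. Of 10 B cell genes none was called in edgeR, and none had an unadjusted p below 0.05, with Cd79a at 7.20, 2.95 and 5.63 CPM in flox mice and at 2.67, 11.4 and 4.87 CPM in KO mice. Mast cell genes rose for 6 of 8, with a median log2 fold change of 2.46. Cpa3, a mast cell protease, stood at 2.99, 1.14 and 2.17 CPM in flox mice and at 6.30, 8.98 and 15.5 CPM in KO mice (log2 fold change 2.29, SE 0.78), a call lost without KO replicate 3 or flox replicate 3. Of 6 neutrophil genes tested, 2 rose and 1 fell, and their median log2 fold change was -0.62, or 0.78 with 2 genes at their bound. Dendritic and NK cell genes rose for 5 of 10 (median 0.84), with Flt3, a receptor of dendritic cell precursors, higher by 1.48 (SE 0.39) and Nkg7, a granule protein of NK and T cells, by 1.46 (SE 0.45) on the log2 scale, the latter lost without KO replicate 3 or flox replicate 3.

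Vascular genes were higher in KO mice by smaller factors. Of 65 tested, 35 rose and 1 fell, against 13.9% and 17.8% of all genes tested, with a median log2 fold change of 0.93. The 65 include the leukocyte adhesion list (7 of 11 rose), which holds genes of leukocytes such as Itgb2 and Selplg. Endothelial identity genes rose for 17 of 20, with a median of 1.06. Pecam1, a junction protein of endothelial cells (chromosome 11, 106654217 to 106750628), stood at 71.0, 105 and 103 CPM in flox mice and at 215, 251 and 176 CPM in KO mice, 2.30-fold higher (log2 fold change 1.203, SE 0.27, adjusted p = 0.00749, edgeR). Cdh5, the cadherin of endothelial junctions, stood at 73.3, 118 and 107 CPM in flox mice and at 251, 266 and 171 CPM in KO mice (log2 fold change 1.203, SE 0.38), and its call was lost without flox replicate 1. The 3 identity genes that did not pass were Kdr, the main VEGF receptor (log2 fold change 0.34, SE 0.27), Nos3, the endothelial nitric oxide synthase (-0.16, SE 0.52), and the transcription factor Erg (0.85).

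Leukocyte adhesion genes rose for 7 of 11, with a median log2 fold change of 0.98. Itgb2, the beta-2 integrin of leukocytes, stood at 38.5, 27.3 and 52.7 CPM in flox mice and at 210.2, 226 and 406 CPM in KO mice (log2 fold change 2.83, SE 0.56), and Selplg, the ligand of selectins, rose by 2.20 (SE 0.44). Of the endothelial partners, Icam1 rose by 1.59 and Vcam1 by 1.19 on the log2 scale, the latter lost without KO replicate 3, flox replicate 1 or flox replicate 3. Selp, which encodes P-selectin, stood at 5.81, 8.57 and 3.60 CPM in flox mice and at 4.13, 8.17 and 5.90 CPM in KO mice, with a log2 fold change of 0.02 (SE 0.37), and Sele, which encodes E-selectin, was at or under 0.369 CPM in all 6 libraries and was not tested. Arterial, venous and lymphatic genes rose for 9 of 17 (median 1.09). Ackr1, a chemokine receptor of venules, stood at 2.52, 3.11 and 2.45 CPM in flox mice and at 6.80, 7.75 and 6.37 CPM in KO mice, with little spread (log2 fold change 1.37, SE 0.24). Dll4, the arterial Notch ligand, rose by 1.11 (SE 0.41), a call lost without KO replicate 1, KO replicate 2 or flox replicate 1, and Prox1, the lymphatic regulator, was not called (1.18, SE 0.75).

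Genes by which capillaries pass fatty acids to adipocytes were not uniform, with 1 higher, 1 lower and 4 not called. Of all genes tested, 13.9% were called higher and 17.8% lower. Gpihbp1, the anchor of lipoprotein lipase, stood at 53.0, 60.7 and 62.4 CPM in flox mice and at 128, 134 and 80.7 CPM in KO mice (log2 fold change 0.96, SE 0.34), a call lost when KO replicate 1, KO replicate 2, flox replicate 1 or flox replicate 3 was left out. The gene that fell was Car4 (log2 fold change -1.74), a carbonic anhydrase, whose groups overlapped and whose call was lost without any of the vehicle libraries but flox replicate 4. Cd36, the fatty acid transporter, was not called (0.30, SE 0.27). Of 11 genes of mural cells, only Pdgfrb rose, from 50.9, 57.3 and 51.4 CPM to 104, 128 and 109 CPM (log2 fold change 1.10, SE 0.20, adjusted p = 0.0039, edgeR). Rgs5, a pericyte gene, had a log2 fold change of 0.40 (SE 0.41) and Acta2, smooth muscle actin, one of -0.25 (SE 0.45), neither of them called.

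Of 87 stromal and other genes tested, 49 rose and 3 fell, against 13.9% and 17.8% of all genes tested. Extracellular matrix genes were called higher for 17 of 24, with a median log2 fold change of 1.10. Col1a1, a chain of type I collagen, stood at 330.4, 288 and 517 CPM in flox mice and at 1091, 1402 and 2283 CPM in KO mice, 4.21-fold higher (log2 fold change 2.07, SE 0.40, adjusted p = 0.00476, edgeR). Timp1, an inhibitor of matrix proteases, stood at 2.56, 3.78 and 6.14 CPM in flox mice and at 37.7, 38.1 and 120 CPM in KO mice (log2 fold change 3.98, SE 0.79). Lox, a collagen crosslinker (1.10, SE 0.36), and Col6a3 (0.97, SE 0.33), a chain of type VI collagen, also rose, but lost their calls without KO replicate 3, flox replicate 1 or flox replicate 3. Of 13 stromal progenitor genes, 9 rose and 2 fell. Pdgfra, a receptor of these cells, rose by 1.17 (SE 0.38), a call lost without KO replicate 3 or flox replicate 3. Dpp4, a marker of interstitial progenitors, fell (log2 fold change -0.96, SE 0.27). It stood at 51.5, 70.6 and 44.0 CPM in flox replicates 1, 3 and 4, in the order of Crisp1, and at 28.1, 32.0 and 25.3 CPM in KO mice. The other that fell was Bmp7 (-1.12), a growth factor. Of 10 mesothelium genes, 2 rose, Gpm6a and Bnc1, both lost when any of KO replicates 2 and 3 or flox replicates 1 and 3 was left out, and Msln was not called (0.99, SE 0.43). Of 7 skeletal muscle genes 2 rose, with a median log2 fold change of 0.17, and Acta1 was not called (-0.36, SE 0.33).

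Cell division genes rose for 17 of 20, with a median log2 fold change of 1.58. Mki67, a protein of dividing cells, stood at 7.33, 14.6 and 26.9 CPM in flox mice and at 53.2, 54.9 and 94.1 CPM in KO mice (log2 fold change 2.05, SE 0.40, adjusted p = 0.00472, edgeR). Top2a, a topoisomerase of dividing cells, stood at 6.51, 12.6 and 21.2 CPM in flox mice and at 35.0, 37.0 and 54.8 CPM in KO mice (log2 fold change 1.65, SE 0.36). All 3 KO mice were above all 3 flox mice for both genes.

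The 5 genes with the largest rise by the same rule were Hmga2, Htr2b, Mmp3, Gdf3 and Rgs1. Hmga2, a chromatin protein of proliferating mesenchymal cells (chromosome 10, 120361275 to 120476469), stood at 0.217, 0.236 and 0.139 CPM in flox mice and at 3.68, 9.15 and 22.4 CPM in KO replicates 1, 2 and 3 (log2 fold change 5.84, SE 0.88, adjusted p = 0.00284, edgeR). Htr2b, a serotonin receptor, stood at 0.694, 0.0393 and 0.277 CPM in flox mice and at 6.10, 10.4 and 20.0 CPM in KO mice (log2 fold change 5.17, SE 0.98). Mmp3, a matrix protease, stood at 0.911, 0.826 and 1.29 CPM in flox mice and at 19.6, 26.6 and 42.4 CPM in KO mice (log2 fold change 4.87, SE 0.70). Gdf3, a growth factor of the TGF-beta family, and Rgs1, a regulator of chemokine receptor signaling, rose by 4.44 (SE 0.82) and 4.37 (SE 0.88) on the log2 scale. KO replicate 3 was the highest KO library for all 5, as it was for the summed macrophage list.

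**Figure D3:**
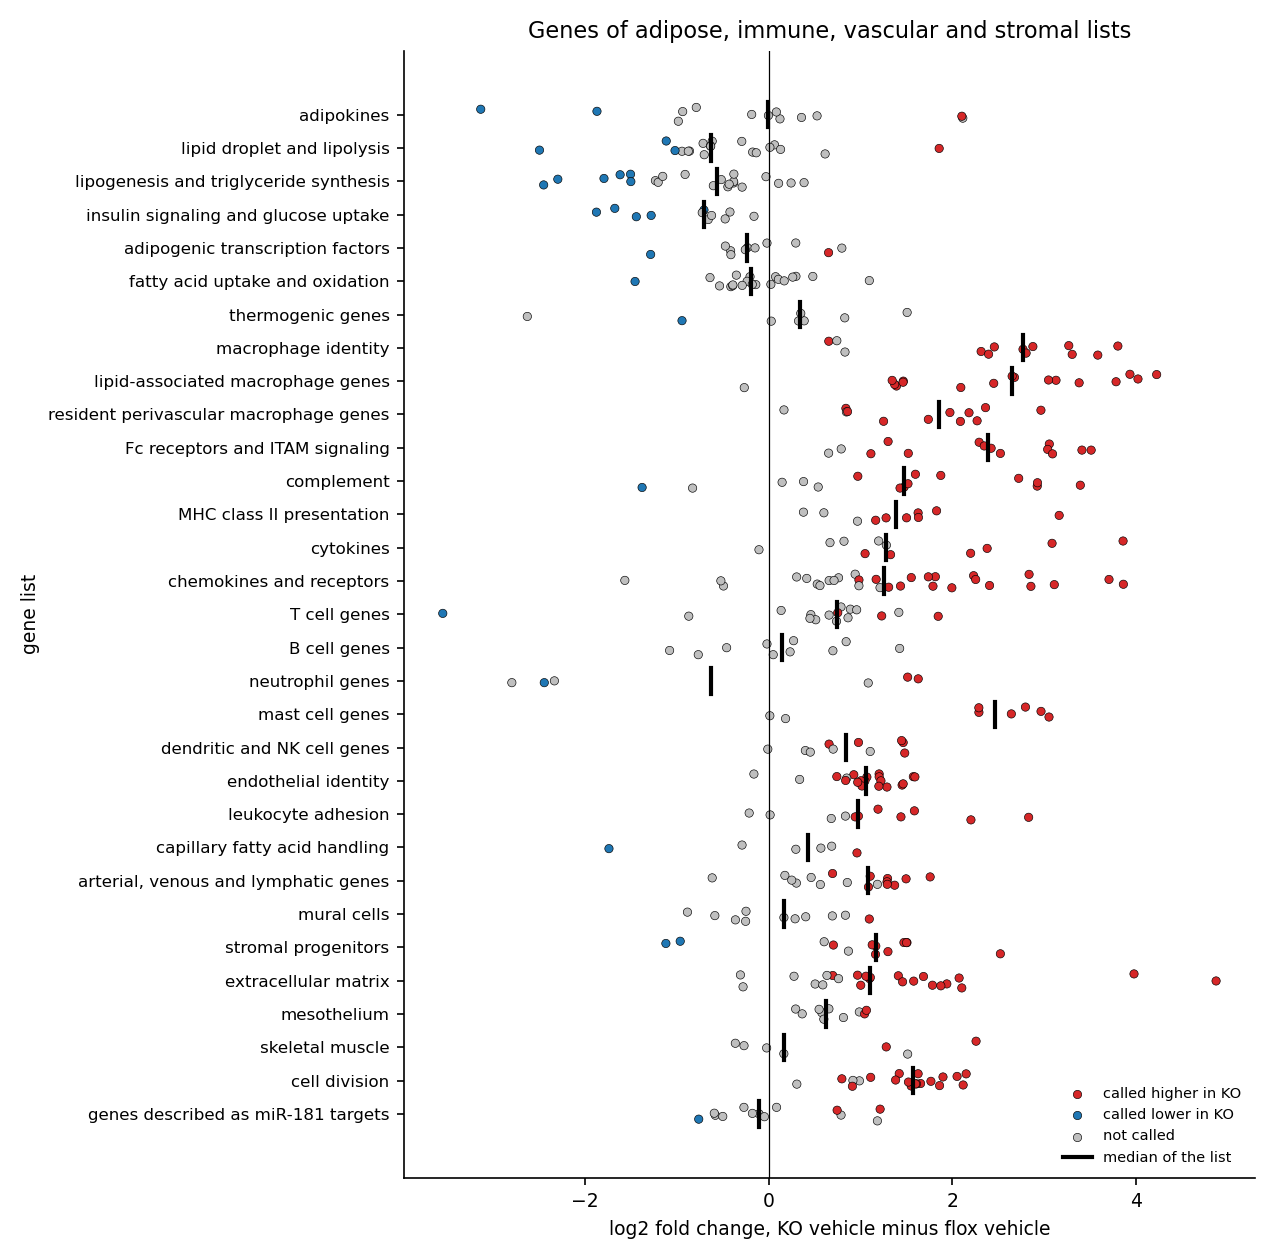
Log2 fold change, KO vehicle minus flox vehicle (x), of each tested gene of the 31 lists outside the reproductive tract (y), coloured by call, with a black bar at the median of the list. Macrophage, Fc receptor, mast cell and cell division lists lie to the right, endothelial and matrix lists have medians near 1, and adipose lists lie around or left of 0.

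Adipocyte genes changed less than either group. Of 104 adipose genes tested, 3 rose, 19 fell and 82 did not pass the test, with a median log2 fold change of -0.38 against -0.06 over all genes and a background of 17.8% called lower. Adipoq, the gene of adiponectin, stood at 3217, 1080.1 and 2194 CPM in flox replicates 1, 3 and 4 and at 1797, 1243 and 726 CPM in KO replicates 1, 2 and 3, with overlapping groups (log2 fold change -0.79, SE 0.51, adjusted p = 0.27, edgeR). Flox replicate 3, with the most epididymal RNA, was the lowest flox library for Adipoq and for the summed lipogenesis list (47012, 16168 and 36333 CPM in flox mice, and 18275, 13886 and 9726 CPM in KO mice). Lep, the gene of leptin, was not called (log2 fold change 0.12, SE 0.51).

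Genes of the lipid droplet fell for 3 of 19 and rose for 1, against 17.8% and 13.9% of all genes tested. Plin1, the coat protein of adipocyte droplets, was not called (log2 fold change -0.71, SE 0.42), nor was the droplet fusion protein Cidec (-0.29, SE 0.46) or Lipe, hormone-sensitive lipase (-0.87, SE 0.42). Plin2, a droplet coat protein of many cell types, macrophages included, went the other way, from 379, 245 and 632 CPM in flox mice to 1269.6, 1252 and 2024 CPM in KO mice (log2 fold change 1.86, SE 0.39, adjusted p = 0.00576, edgeR). Adrb3, the receptor through which catecholamines drive lipolysis (chromosome 8, 27225776 to 27250616), stood at 727, 151 and 347 CPM in flox mice and at 140, 42.9 and 35.7 CPM in KO mice, 5.62-fold lower (log2 fold change -2.49, SE 0.84, adjusted p = 0.0454, edgeR). The lowest flox library lay close to the highest KO library, and the call was lost without flox replicate 1, KO replicate 2 or KO replicate 3.

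Of 22 genes of lipogenesis and triglyceride synthesis, 6 fell, against 17.8% of all genes tested, with a median log2 fold change of -0.56. Elovl6, a fatty acid elongase, stood at 42.0, 78.2 and 31.5 CPM in flox replicates 1, 3 and 4, in the order of Crisp1, and at 21.0, 11.9 and 16.7 CPM in KO mice (log2 fold change -1.61, SE 0.56). Pck1, which supplies glycerol for triglycerides, stood at 1955, 227 and 872 CPM in flox mice and at 305, 186 and 133 CPM in KO mice (log2 fold change -2.29, SE 0.74), with overlapping groups. Each of these calls was lost when 1 of 3 libraries was left out, KO replicate 2, KO replicate 3 and flox replicate 3 for Elovl6, and KO replicate 2, KO replicate 3 and flox replicate 1 for Pck1. Fasn, fatty acid synthase (-0.44, SE 0.63), Acly, ATP citrate lyase (-0.91, SE 0.44), and Dgat2, the last enzyme of triglyceride synthesis (-0.51, SE 0.51), were not called.

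Insulin signaling and glucose uptake genes fell for 5 of 11, against 17.8% of all genes tested, with a median log2 fold change of -0.70. No gene of the list rose. Insr, the insulin receptor, stood at 132, 107 and 122 CPM in flox mice and at 79.1, 74.5 and 68.1 CPM in KO mice, 1.63-fold lower (log2 fold change -0.70, SE 0.18, adjusted p = 0.0147, edgeR). Irs1, its substrate, stood at 14.2, 5.98 and 10.3 CPM in flox mice and at 4.13, 3.09 and 2.34 CPM in KO mice (log2 fold change -1.67, SE 0.44, adjusted p = 0.0156, edgeR). Both groups were separate for these 2 genes, and neither call was lost when any 1 library was left out. Slc2a4, the insulin-regulated glucose transporter, stood at 156, 67.6 and 116 CPM in flox mice and at 66.7, 48.4 and 25.1 CPM in KO mice (log2 fold change -1.28, SE 0.49, adjusted p = 0.0744, edgeR), and lost its call without flox replicate 1, flox replicate 4, KO replicate 2 or KO replicate 3.

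The other adipose lists held few calls, where 13.9% of all genes tested were called higher and 17.8% lower. Of 13 adipokines, Retn, the gene of resistin, fell (log2 fold change -1.87, SE 0.73, lost without flox replicate 1, flox replicate 4, KO replicate 2 or KO replicate 3), as did Cfd, the gene of adipsin, which stood at 7981, 1447 and 1620 CPM in flox mice and at 694, 395 and 173 CPM in KO mice (-3.13), while Metrnl rose (2.10). Of 11 adipogenic transcription factors 1 rose, Cebpb (lost without KO replicate 1, KO replicate 3, flox replicate 1 or flox replicate 3), and 1 fell, Stat5a, and the master regulators Pparg (-0.23, SE 0.31) and Cebpa (-0.41, SE 0.32) were not called. Of 20 genes of fatty acid uptake and oxidation only Ppara fell (-1.45, lost without KO replicate 3), and Lpl, lipoprotein lipase (0.08, SE 0.42), and Acadm, an enzyme of beta-oxidation (-0.20, SE 0.36), were not called. Of 8 thermogenic genes only the coactivator Ppargc1a fell (-0.94, SE 0.30, lost without flox replicate 1, KO replicate 1 or KO replicate 3), and Ucp1, the uncoupling protein, was at 9.93 CPM in flox replicate 4 and under 1 CPM in the other 5 libraries.

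**Figure D4:**
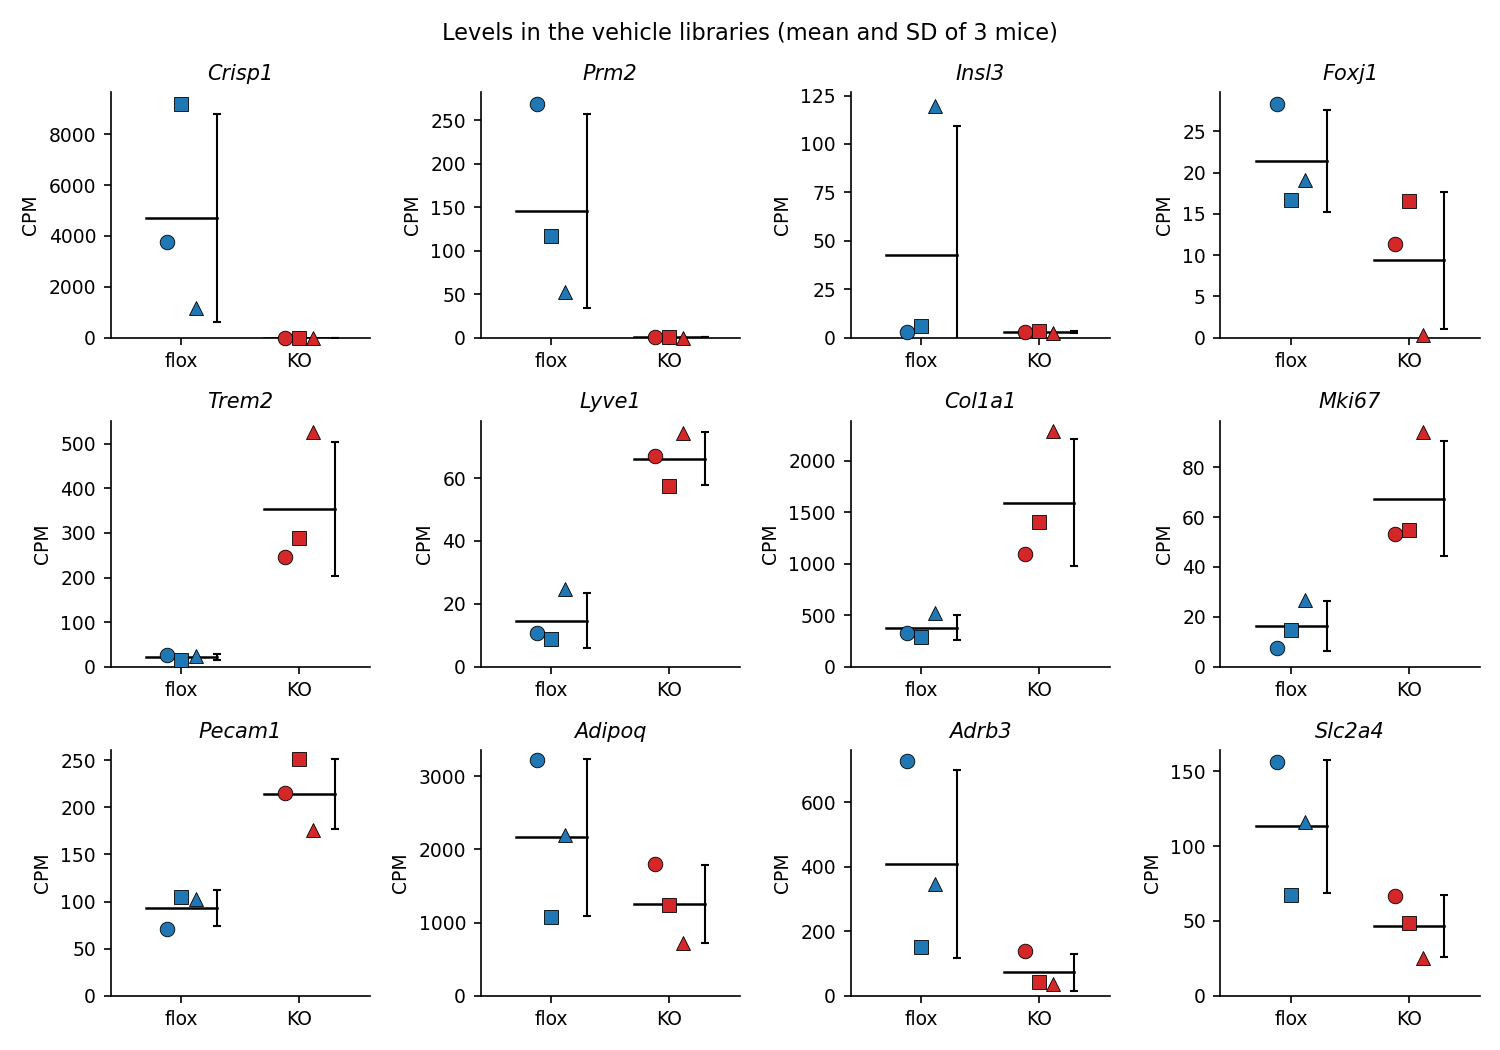
CPM (y) of 12 genes in the flox and KO vehicle libraries (x), with the line at the mean and the bar showing the SD over 3 mice, cut at 0. Circles, squares and triangles are replicates 1, 3 and 4 in flox mice and 1, 2 and 3 in KO mice. Prm2, Insl3 and Foxj1 each order the flox libraries differently from Crisp1, and Trem2, Lyve1, Col1a1, Mki67 and Pecam1 separate the genotypes in every mouse.

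Whether the genotype difference itself differed between vehicle and MTX was tested as an interaction in the same fit, with no sample shared between the 2 comparisons. Of 18702 genes, 185 (0.989%) were called, 168 of them with a lower and 17 with a higher value under vehicle, and 2811 had an unadjusted p below 0.05. Of the 168, 21 were in tract lists, 18 of them among the 27 spermatid genes, and none of the 185 had the pattern of flox MTX replicate 1. The spermatid list had a median log2 fold change, KO minus flox, of -5.73 under vehicle and 1.08 under MTX, where its sums were 19.8 to 29.9 CPM in flox mice and 14.1 to 43.4 CPM in KO mice. The sum of 43.4 CPM was that of KO MTX replicate 4, and without this library 9 genes were called for the difference. Epididymal secretory proteins had medians of -8.79 and -5.38, and no gene of that list was called for the difference. Macrophage identity genes had medians of 2.77 under vehicle and 1.44 under MTX, and none was called. Among the resident macrophage markers, Lyve1 alone was called, with a genotype difference 2.43 higher under vehicle (SE 0.54, adjusted p = 0.097, edgeR). Endothelial identity genes had medians of 1.06 and 0.62, and insulin signaling genes of -0.70 and -0.91, with none called. The count of 185 was unstable, from 5 without KO vehicle replicate 2 to 1371 without flox vehicle replicate 4, and a block for the replicate number left 0 in edgeR (2312 genes at an unadjusted p below 0.05), while DESeq2 called 1248.

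The calls were also given without the libraries that stood apart. Without flox replicate 3, 2185 genes were called higher and 2647 lower, with 214 of the pattern genes, 100 tract genes lower, 87 immune, 27 vascular and 41 stromal or other genes higher, and 28 adipose genes lower. Without KO replicate 3 the adipose genes called lower fell from 19 to 7, and without flox replicate 1 the vascular genes called higher from 35 to 20. With the log2 of the summed epididymal secretory proteins, lipocalins and beta-defensins as a covariate, no gene was called in edgeR, with 1539 at an unadjusted p below 0.05, and the median SE over the genes tested rose from 0.31 to 0.71, so that genotype and epididymal RNA cannot be told apart in that fit.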

How the data were processed

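Polyadenylated or ribosome-depleted RNA (the label and the study's methods differ, as they do on read length) of eWAT from 12 male mice was sequenced, 3 mice in each of 4 groups set by the labels. The authors deposited 1 table of raw read counts for 49315 genes, made, per the submitters' processing notes, with Trimmomatic 0.36, STAR 2.5.2b and featureCounts of Subread 1.5.2 on the mouse genome mm10. How strand and multi-mapped reads were handled is not given in the sources used here, so counts of overlapping genes and of near-identical families (beta-defensins, Spint and Wfdc genes, MHC class II, Fc receptors) are uncertain. Symbols and coordinates came from GENCODE on GRCm38 and covered 99.5% of genes.

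Counts were tested with edgeR 4.0.16 in R 4.3.3 (limma 3.58.1), by the quasi-likelihood test with TMM factors, filterByExpr and 1 coefficient per group over the 12 libraries (8 residual degrees of freedom, common dispersion 0.100), which left 18702 genes. The limits for a call were 0.1 for the adjusted p (Benjamini-Hochberg) and 1.5 for the fold change. CPM values are TMM-scaled. Library totals ranged from 19495310 to 23976469 counts, and floors of 3 counts cover counting error only. In data simulated over 18702 genes, 159 of 200 genes changed 4-fold were recovered and 13 unchanged genes were called. All other genes had the same mean in every library. Uneven epididymal RNA and the many calls of the real comparison were thus not simulated.

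The 41 gene lists, and the 123 named genes, were chosen with earlier results of these data known. Named genes were those marked in the lists and the 5 genes called higher and the 5 called lower that changed most outside the tract lists and the pattern, with non-overlapping groups and a mean of at least 10 CPM in the higher group. Genes named beyond this rule were chosen after their values were seen: Cuzd1, Ptgds, Gpx3, Hdac6, Cyp2e1, Cfd and those list members that were the exceptions in their list or had the opposite call. The alternatives were DESeq2 1.42.0, other scalings, filters and fold limits, the 6 libraries alone, a replicate block, an epididymal covariate and leaving out each library.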

Additional observations from a re-analysis of the deposited data

Results flagged for a closer look

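The genotype difference of 7 named genes differed between vehicle and MTX by the interaction test in edgeR, given here as the log2 fold change (KO minus flox) under vehicle minus that under MTX. It was -10.02 for Prm1 (adjusted p = 0.0135), -10.51 for Prm2 (adjusted p = 0.0585), -11.39 for Tnp1 (adjusted p = 0.0262) and -9.21 for Akap4 (adjusted p = 0.0847), 4 spermatid genes that were lower in 3 of 3 KO vehicle libraries. Among the MTX libraries, KO replicate 4 had 25, 95, 16 and 9 counts of these 4 genes, and each of the others had 0 to 6. The size of these differences therefore rests in part on 1 library with low counts, without which 9 genes were called for the difference. It was -11.24 for March10 (adjusted p = 0.0836) and -12.79 for Tuba3a (adjusted p = 0.0449), which were also lower in 3 of 3 KO vehicle libraries. Both had few counts in the MTX libraries, 0 to 5 for March10 and 0 to 10 for Tuba3a, with the 10 in KO MTX replicate 4. Their KO vehicle libraries had 0 or 1 counts, so the size of these 2 differences is also uncertain. It was 2.43 for Lyve1 (adjusted p = 0.097), which stood at 10.6, 8.69 and 24.6 CPM in flox vehicle mice and at 45.0 to 99.0 CPM in flox MTX mice.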

How the results depend on the processing

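With 3 mice a group, 159 of 200 simulated 4-fold changes were recovered, so smaller changes can be missed. The simulation changed far fewer genes than were called here, so its rates need not hold for the real comparison. Of 229 counts recomputed under alternatives and leave-one-out fits, 191 stayed within 1.5 times. Of the values of single genes 62 changed direction, 136 lost their call and 25 gained one. Of the list medians 87 moved by at least the SD of the list within groups. A further 2938 values of either kind did not change in these ways. With the epididymal covariate every count of calls was 0 and the difference between treatments had 1 call. The cause was not tested. When a log2 fold change of 1.5 was required, 3026 genes were called, 1005 of them higher and the rest (2.0e+03) lower, with 10 adipose genes lower, 6 vascular and 25 stromal or other genes higher. With at least 10 counts in every library, which drops genes absent from KO mice, 1874 were lower, 5 of them with the pattern and 19 in tract lists, and the difference between treatments had 1 call. That difference had 1248 calls in DESeq2 and 472 with no filter.

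The replicate numbers showed little sign of pairing between groups. Same-numbered libraries of different groups had a median correlation of 0.035 (-0.27 to 0.25), against 0.011 (-0.38 to 0.45) for other pairs. The paper states that littermates matched by cage were used, but which mice these were is not given in the sources used here. Whether same-numbered mice shared a cage, litter or batch cannot be told from these values. With the replicate number as a block, 5080 genes were called, 2083 higher and 2997 lower, and the difference between treatments had 0 calls (2312 at an unadjusted p below 0.05 in edgeR). With the block, log2 fold changes turned to 0.0059 for Fasn, 0.051 for Acadm, -0.47 for Cd79a, 0.074 for Nos3, -0.21 for Selp, 0.016 for Acta2 and 0.058 for Kpna4. Selp was -0.0014 in DESeq2, -0.0013 with RLE factors and -0.0071 with at least 10 counts.

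With the epididymal covariate, log2 fold changes turned to 0.74 for Crisp1, 0.54 for Adam7, 10.13 for Lcn5, 0.22 for Defb48, 0.26 for Epcam, 1.91 for Cdh1, -0.025 for Lep, -0.26 for Lpl, -0.76 for Timd4, -1.52 for Il1b, -0.43 for Cd3e, -1.09 for Cd4, -1.12 for Cd8a, -2.50 for Cd79a, 0.46 for Nos3, -0.50 for Prox1, -0.95 for Msln, -0.12 for Card10, 1.53 for Alppl2, 12.92 for Spint4 and 13.64 for Spint5. The class medians were then -0.61 (tract), -0.60 (adipose), 0.70 (immune), 1.54 (vascular) and 0.62 (stroma and other).

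Leaving out 1 library at a time gave 4640 (KO vehicle replicate 3) to 6828 (flox MTX replicate 2) calls, 1940 to 2893 higher and 2647 to 3935 lower. The ranges were 214 to 228 for pattern genes, 100 to 131 for tract, 7 to 28 for adipose genes lower, 84 to 113 for immune, 20 to 37 for vascular and 35 to 56 for stromal or other genes higher, and 5 to 1371 for the difference between treatments. Log2 fold changes spanned 0 for Rnase10 (-0.23 to 1.32), Gpx5 (-7.66 to 8.08), Lcn8 (-3.20 to 6.60), Lep (-0.19 to 0.71), Pparg (-0.37 to 0.02), Lpl (-0.14 to 0.45), Acadm (-0.47 to 0.047), Ucp1 (-3.21 to 1.67), Timd4 (-0.30 to 0.81), Cd79a (-0.46 to 0.67), Nos3 (-0.31 to 0.064), Selp (-0.24 to 0.37), Acta2 (-0.60 to 0.069), Kpna4 (-0.20 to 0.055), Card10 (-0.026 to 0.34) and Bcl2 (-0.18 to 0.14).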
